A study of Mus musculus with 12 samples.

Results

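The Ink4 and Cip/Kip inhibitors of cyclin-dependent kinases were followed as 7 genes: the Ink4 members Cdkn2a, Cdkn2b, Cdkn2c and Cdkn2d and the Cip/Kip members Cdkn1a, Cdkn1b and Cdkn1c. They were taken as every probe outside the array's controls whose accession maps to one of these symbols, which gave 8 of 41174 probes. Cdkn1b had 2 probes and the other members 1 each. All 7 genes passed the filter on dim probes and were among the 31064 genes tested. The arrays carry RNA from 12 single colonies of mouse dental epithelial stem cells, grown in vitro from the labial cervical loop, which houses the stem cells that renew incisor epithelium. The double null colonies lack both Bmi1 and Ink4a/Arf, the Bmi1 null colonies lack Bmi1 alone, and the wild-type colonies carry neither mutation. Each genotype had 4 colonies on a mixed genetic background, and no colony received a treatment that the labels name. The age and number of the animals, the exons deleted and the nature of the alleles are not given in the sources used here. The p-values therefore measure the spread between colonies, which may share an animal.

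Ink4 proteins bind the kinases Cdk4 and Cdk6 and keep D-type cyclins from activating them, so that the retinoblastoma protein stays unphosphorylated and holds E2F factors in check. Cip/Kip proteins bind complexes of cyclins with kinases, above all those that contain Cdk2. Cdkn2a encodes Ink4a and, from its own first exon and in another reading frame, Arf, which shields the tumour suppressor p53 from Mdm2. Bmi1 is a subunit of Polycomb repressive complex PRC1 and a known repressor of this locus, and Cdkn1a is a classical target of p53.

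Levels are given as log2 of the processed spot signal minus the 75th percentile of the same array, so a level of 0 is the 75th percentile. Levels of different probes are not comparable with each other. The 75th percentile itself lay at a signal of 312 to 638 in double null, 395 to 911 in Bmi1 null and 255 to 500.5 in wild-type colonies, and precision is limited by the count of arrays. They were spread over 5 slides, with 2 Bmi1 null and 2 wild-type arrays on slide 1, all 3 genotypes once on slide 2, and 2 double null arrays beside 1 Bmi1 null array on slide 3. The other two slides had a single array. Double null replicate 1 had 1336 spots marked as outliers, against 55 to 132 on the other arrays. Wild-type arrays stood apart from all mutant arrays. Their log2 signals had the narrower interquartile range, with 4.66 ± 0.42 (SD, n = 4) in double null and 4.52 ± 0.18 in Bmi1 null against 2.56 ± 0.06 in wild-type colonies. Of 926 probes for olfactory receptors, which sense odours, the share well above background was 58.0% ± 9.21 in double null and 64.7% ± 8.65 in Bmi1 null against 98.4% ± 1.34 in wild-type colonies. Of the 20 epithelial markers tested, all 20 were well above background in each genotype, with summed levels (linear scale) of 777 to 1321 in double null, 769 to 998 in Bmi1 null and 209 to 538 in wild-type colonies. The 11 dental epithelial stem cell markers summed to 66.9 to 165 in double null, 51.2 to 77.8 in Bmi1 null and 23.8 to 40.8 in wild-type colonies. Of these 11, 6 were higher and 4 lower in double null, and 4 and 6 in Bmi1 null colonies, against wild type (limma adjusted p under 0.05). The 11 immune markers tested summed to 1.27 to 1.90 in double null, 1.45 to 2.04 in Bmi1 null and 10.74 to 13.5 in wild-type colonies, with none of them below background on every array of a genotype. The 12 mesenchymal markers summed to 5.69 to 41.4, 5.06 to 10.4 and 12.2 to 14.7, and the 6 ameloblast markers to 0.991 to 4.84, 0.730 to 3.89 and 3.35 to 7.44 in the same genotypes, with Ambn and Mmp20 well above background on 0 arrays of either mutant. The 7 endothelial markers summed to 0.727 to 1.39, 0.760 to 1.10 and 3.03 to 4.27 in the same genotypes. The 9 glial, neural and melanocyte markers tested summed to 5.10 to 5.34, 4.76 to 5.52 and 14.4 to 17.8. The part of these differences in the comparisons was not tested, and in RNA of whole colonies fewer cells of a type and less RNA per cell cannot be told apart. The part of the narrower wild-type signal range in these sums was not tested either. The brighter Bmi1 probe stood at -2.54 ± 0.20 in double null, -2.36 ± 0.15 in Bmi1 null and -0.27 ± 0.46 in wild-type colonies. This probe was well above background on 4 of 4 arrays in each genotype. The dimmer one was so on 1 of 4, 1 of 4 and 4 of 4 arrays.

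Double null against Bmi1 null colonies is the comparison of the 2 mutants, in which genes are called sparingly: 7.56% of all tested genes passed the threshold, a limma adjusted p under 0.05, with 2.75% higher and 4.8% lower. Among the inhibitors, Cdkn1a, Cdkn1c and Cdkn2a were lower in double null colonies and 0 were higher, which is 2 of 3 Cip/Kip members and 1 of 4 Ink4 members. Cdkn2a passed the filter on dim probes only through Bmi1 null colonies, where it was high, so its call is no support for a difference of the family. The other 6 inhibitors passed the filter in every genotype. The median log2 change was -1.16 over the Cip/Kip members and 0.31 over the Ink4 members, beside -0.07 over all genes. The arrays of the 2 mutants did not overlap for 4 of the 7, those 3 and Cdkn2b, where 13.8% of all genes showed no overlap. With the arrays aligned on their median the same 3 genes were called lower and 0 higher, beside 3.8% and 3.19% of all genes. Against wild type the calls carry little weight, since 83.5% of all genes were called in Bmi1 null (25.2% higher, 58.3% lower) and 85.5% in double null colonies (25.5% higher, 59.9% lower), and the arrays did not overlap for 80.1% and 81.1% of genes. All 7 inhibitors were called in Bmi1 null colonies against wild type, 4 higher and 3 lower, and 6 did not overlap. Cdkn1b, among the 3 lower, was read by the brighter of its 2 probes (log2 change -1.12). Read by its dimmer probe it was higher (1.84), and the 7 calls were 5 higher and 2 lower. In double null colonies against wild type 5 were called and 4 did not overlap. Of these Cdkn1a and Cdkn2b were higher, Cdkn2c and Cdkn2d were lower, and the fifth, Cdkn2a, was not well above background in either genotype. Cdkn2a is also among the 4 that did not overlap. Read by its dimmer probe, Cdkn1b was called higher in double null colonies too (2.47), which made 6 calls, 3 higher and 3 lower. Both comparisons use the same 4 wild-type arrays. The median log2 change of all genes was -1.41 in double null and -1.24 in Bmi1 null colonies against wild type. When arrays were aligned on their median instead, 4 of the 7 were called in double null (3 higher, 1 lower), beside 79.6% of all genes (36.7% higher, 42.9% lower), and 5 in Bmi1 null colonies (4 higher, 1 lower), beside 78.7% (36.9% higher, 41.8% lower). The 1 lower in double null was Cdkn2a, for which no fold can be stated, since neither genotype was well above background.

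**Figure D1:**
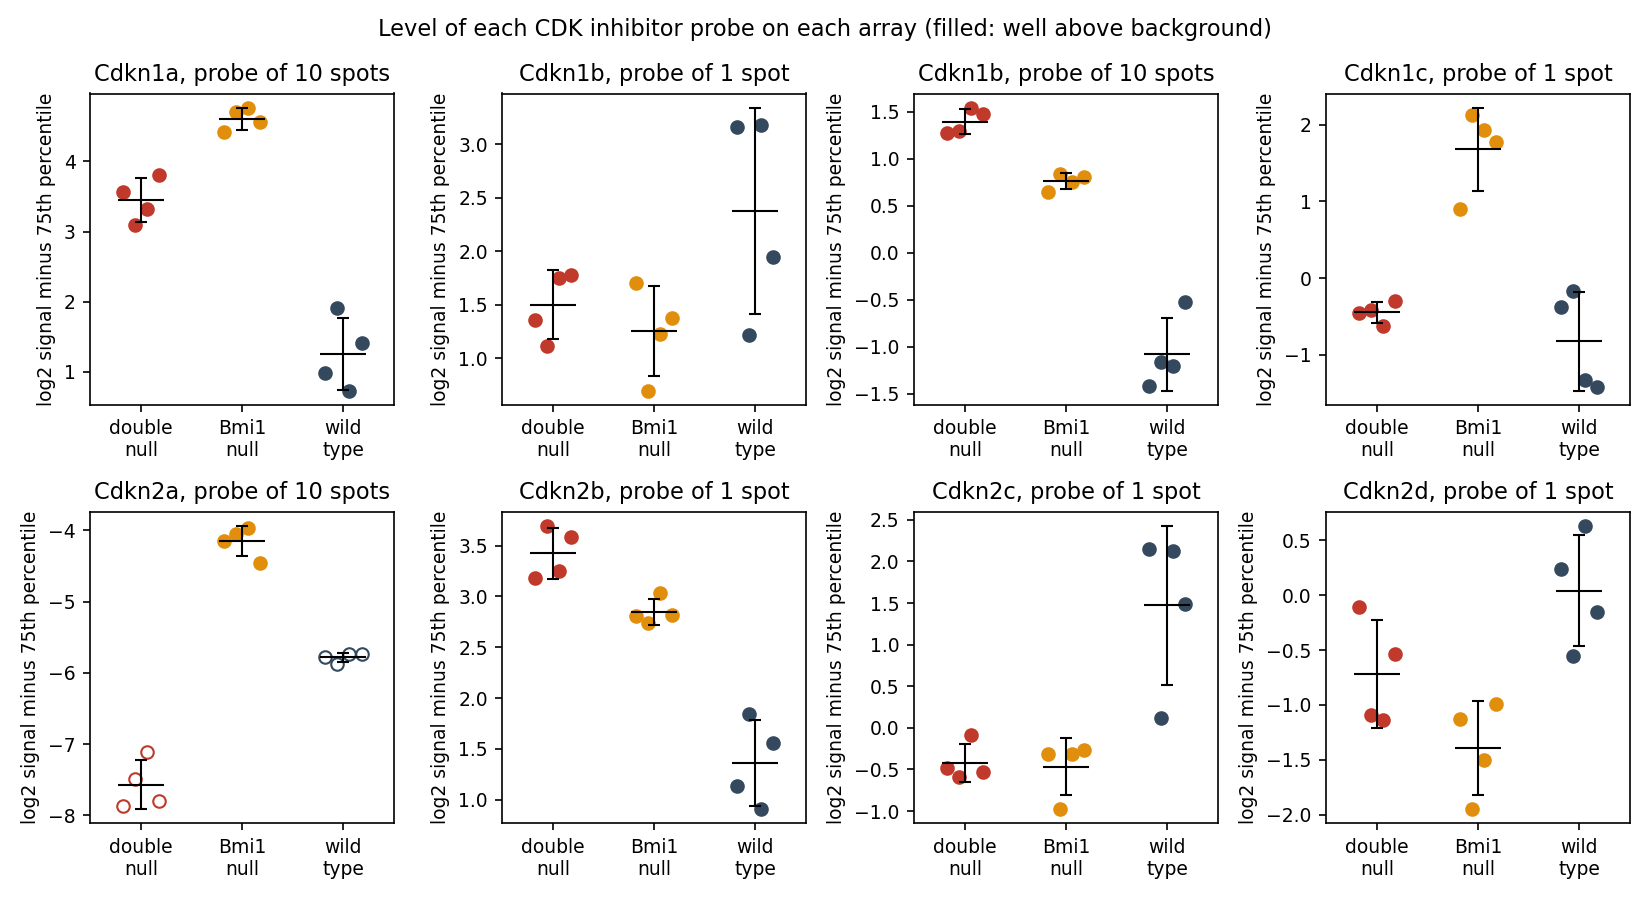
Level of each of the 8 probes (y axis, log2 units above the 75th percentile of its array) in double null, Bmi1 null and wild-type colonies, with 1 point per array, the mean as a bar and the SD as whiskers (n = 4). Cdkn1a, Cdkn1c and Cdkn2a peak in Bmi1 null colonies, Cdkn2b and the 10-spot probe of Cdkn1b are highest in double null colonies, and only Cdkn2a has arrays not well above background (open points).

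Cdkn1a encodes p21, a broad inhibitor of cyclin-kinase complexes that p53 induces. It lies at chr17:29090979-29100722 (GRCm38.p6), and its probe is printed in 10 spots on each array. The level was 3.57, 3.09, 3.32 and 3.81 in double null, 4.41, 4.71, 4.76 and 4.56 in Bmi1 null and 0.99, 1.90, 0.74 and 1.42 in wild-type colonies. All 4 arrays of each genotype stood clear of those of both other genotypes, with Bmi1 null on top, double null between and wild type lowest. Double null colonies had 2.23-fold less Cdkn1a signal than Bmi1 null colonies, a log2 change of -1.16 ± 0.26 (SE, limma adjusted p = 0.0174), and the direction was the same within the slides that held both (-1.39 on slide 2, -1.07 on slide 3). Among other settings, the call ended with the slide as a block, which leaves no information from the double null array alone on its slide (-1.35, adjusted p = 0.0675), and without double null replicate 3 (-1.12, adjusted p = 0.0515). Against wild type Cdkn1a was 4.56-fold higher in double null colonies (log2 2.19 ± 0.26, adjusted p = 5.51e-06; 1.42 on slide 2) and 10.2-fold higher in Bmi1 null colonies (3.35 ± 0.26, adjusted p = 2.13e-07; 3.62 on slide 1 and 2.81 on slide 2). Relative to the median of all genes these log2 changes were 3.59 and 4.59, and the authors' processed values gave 1.43 and 2.66.

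RefSeq lists 2 transcript starts of Cdkn1a, 2790 bases apart. The window around the upstream start is shown because it holds a match to the p53 element (2 adjoining parts with the core C and G of each kept, at most 1 mismatch elsewhere), given in capitals, whose first base lies 51 bases and last base 32 bases before that start. Such a match occurs in 22 of the 32851 promoter windows of all genes (0.067%) and in 1 of the 9 windows searched, which belong to 6 of the 7 inhibitors (Cdkn1c is not among them). The match is a description of the reference sequence (RefSeq, GRCm38.p6) and not of binding in these colonies.
Cdkn1a upstream promoter, chr17:29090729-29091028, plus strand: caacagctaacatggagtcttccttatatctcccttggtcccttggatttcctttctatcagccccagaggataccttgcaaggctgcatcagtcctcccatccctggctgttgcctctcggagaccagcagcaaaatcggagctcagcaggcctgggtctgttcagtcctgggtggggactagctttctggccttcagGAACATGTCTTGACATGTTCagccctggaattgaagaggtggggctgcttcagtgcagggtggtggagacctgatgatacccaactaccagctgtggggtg

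Cdkn1b encodes p27, a Cip/Kip inhibitor of Cdk2 complexes that is controlled largely by protein turnover, and its 2 probes gave changes of opposite sign against wild type. The gene lies at chr6:134920401-134925525 (GRCm38.p6). The 10-spot probe read 1.27, 1.29, 1.54 and 1.48 in double null, 0.64, 0.83, 0.75 and 0.81 in Bmi1 null and -1.42, -1.16, -1.20 and -0.52 in wild-type colonies. On this probe all 3 genotypes were separate, double null highest and wild type lowest. The single-spot probe, which is the brighter and stood for the gene in the fit, read 1.36, 1.12, 1.75 and 1.78 in double null, 1.71, 0.70, 1.23 and 1.38 in Bmi1 null and 3.17, 1.22, 3.18 and 1.94 in wild-type colonies. Here the genotypes overlapped, and wild-type replicates 1 and 4 were the highest arrays.

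Against wild type, the 10-spot probe was 5.55-fold higher in double null colonies (log2 2.47 ± 0.20 SE, adjusted p = 3.23e-07 in a limma fit of every probe) and 3.57-fold higher in Bmi1 null colonies (1.84 ± 0.20, adjusted p = 3.6e-06). The single-spot probe changed in the Bmi1 null, by -1.12 ± 0.41 (limma adjusted p = 0.0206; -1.63 on slide 1 and -0.52 on slide 2), and stood at -0.87 ± 0.41 in the double null (adjusted p = 0.0592; 0.53 on slide 2). The double null change was called without wild-type replicate 3 (-1.26, adjusted p = 0.0051), under quantile normalization (-1.67, adjusted p = 0.00277), with the authors' processed values (-1.50, adjusted p = 0.0167) and where only probes well above background on all 12 arrays were tested (adjusted p = 0.0458). The Bmi1 null call ended without wild-type replicate 1 (-0.86), wild-type replicate 4 (-0.86) or Bmi1 null replicate 2 (-0.94), with normexp background correction (-0.83) and with the arrays aligned on their median (-0.19). After subtraction of the all-gene median, the 10-spot probe stood at 3.88 in double null and 3.08 in Bmi1 null and the single-spot probe at 0.53 and 0.11. With the arrays aligned on their median the single-spot probe stood at 0.15 in double null and at -0.19 in Bmi1 null. Its sign in double null thus depends on the scaling. The 2 probes do not give 1 direction for the gene against wild type, and where in the transcript each probe lies was not analysed here. Between the mutants neither probe was called: the log2 change in double null against Bmi1 null colonies was 0.64 ± 0.20 for the 10-spot probe (adjusted p = 0.0734, interval 0.20 to 1.07) and 0.25 ± 0.41 for the single-spot probe (adjusted p = 0.786, interval -0.63 to 1.13).

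**Figure D2:**
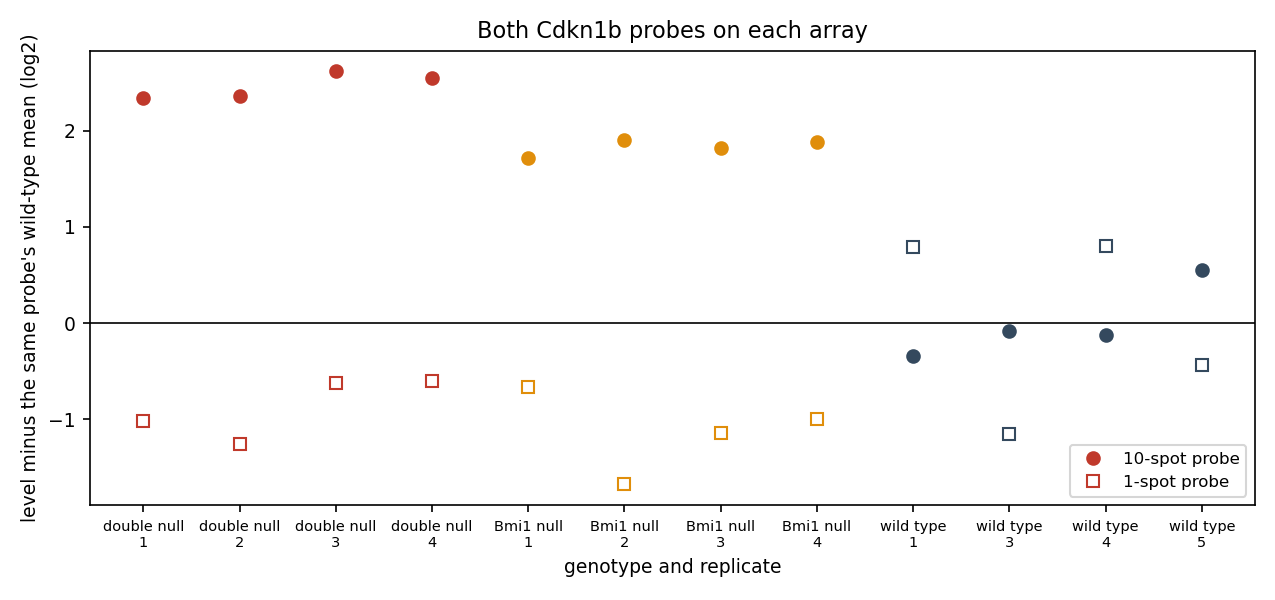
Each Cdkn1b probe on each array, as its level minus the mean of the same probe over the 4 wild-type arrays (y axis, log2), by genotype and replicate (x axis). The 10-spot probe (filled circles) lies above its wild-type mean on all 8 mutant arrays and the single-spot probe (open squares) below its own on the same 8.

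Cdkn1c encodes p57, the Cip/Kip inhibitor made from the maternal copy of an imprinted cluster, and it stood out in Bmi1 null colonies. It lies at chr7:143458339-143461059 (GRCm38.p6). Its level was -0.45, -0.41, -0.63 and -0.29 in double null, 0.90, 2.12, 1.93 and 1.77 in Bmi1 null and -0.37, -0.17, -1.33 and -1.42 in wild-type colonies. Every Bmi1 null array lay above every array of the other genotypes, while double null and wild-type arrays overlapped. Against Bmi1 null colonies, Cdkn1c was 4.37-fold lower in the double null (log2 -2.13 ± 0.33 SE, limma adjusted p = 0.00283; -2.75 on slide 2 and -2.30 on slide 3; -2.50 with the slide as a block, adjusted p = 0.0294). Against wild type it was 5.66-fold higher in the Bmi1 null (2.5 ± 0.33, adjusted p = 1.51e-05; 2.19 on slide 1 and 2.28 on slide 2; 3.74 relative to the median of all genes). Between double null and wild-type colonies the change was 0.37 ± 0.33 (adjusted p = 0.296, interval -0.34 to 1.08; -0.46 on slide 2; 1.78 relative to the median of all genes), and it was called only with the arrays aligned on their median (1.40, adjusted p = 0.00122).

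The other genes of the imprinted cluster did not show the pattern of Cdkn1c as a group. Of 13 tested, 0 were higher and 1 lower in the double null against the Bmi1 null, with a median log2 change of -0.05 beside -0.07 over all genes. The 1 called was Kcnq1ot1, the long noncoding RNA transcribed antisense to Kcnq1, at -1.56 ± 0.40 (SD, n = 4) in double null and -0.51 ± 0.28 in Bmi1 null colonies (log2 change -1.04 ± 0.24 SE, limma adjusted p = 0.0212). The log2 changes of its 3 further probes were -1.78 to -1.01, and the sources used here do not say whether the labelling kept the strand. The call ended with normexp correction, quantile normalization and the slide as a block, and without Bmi1 null replicate 2 or double null replicate 2. Phlda2, a neighbour of Cdkn1c that shares its maternal expression, had a log2 change of -0.89 ± 0.36 (adjusted p = 0.162).

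Cdkn2a is the gene of the targeted locus. It lies at chr4:89274473-89294619 (GRCm38.p6) and was read by 1 probe of 10 spots. Whether this probe lies inside the deleted part, and whether it reads the Ink4a or the Arf transcript, was not analysed here, so it checks the genotype labels only in part. It was well above background on 0 of 38 usable spots in double null, 39 of 39 in Bmi1 null and 3 of 40 in wild-type colonies, the 3 all on wild-type replicate 5. Before background subtraction the median of its spots was 36.0, 34.5, 33.25 and 36.0 in double null, 92.5, 83.25, 77.0 and 53 in Bmi1 null and 40.25, 44.5, 39.25 and 46.25 in wild-type colonies. The 153 negative control spots of the arrays had medians of 30.0 to 37.0. Every Bmi1 null array stood above every array of the other genotypes, and Bmi1 null replicate 4 was the lowest of its group.

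The Cdkn2a level was -7.86, -7.50, -7.11 and -7.80 in double null, -4.14, -4.06, -3.96 and -4.45 in Bmi1 null and -5.78, -5.87, -5.74 and -5.73 in wild-type colonies. An array counts as well above background where most spots of the probe are. For a genotype in which no array does, the fold is given as a bound, with the lowest signal well above background on each array standing in where it is higher. On this scale Cdkn2a was at least 2.72-fold lower in the double null than in Bmi1 null colonies (limma adjusted p = 6.33e-06 for the fitted change). Against wild type it was, on the same scale, at least 1.75-fold higher in the Bmi1 null (limma adjusted p = 9.63e-06 for the fitted change). Both p-values rest on fitted values of a genotype that was not well above background, and the probe was tested only because it was bright in Bmi1 null colonies. The fitted log2 change between the mutants was -3.05 on slide 2 and -3.87 on slide 3, and that between Bmi1 null and wild-type colonies 1.46 on slide 1 and 1.81 on slide 2. With normexp background correction, which keeps low signals off 0, both calls ended and the changes were 0.10 and -0.23. In the authors' processed value table both calls held, at log2 -0.90 (adjusted p = 0.000312) and 1.02 (adjusted p = 7.44e-07). For double null against wild type no fold can be stated, since neither was well above background. Of the raw spots, 4 of 38 in double null, 39 of 39 in Bmi1 null and 35 of 40 in wild-type colonies exceeded the 95th percentile of the negative control spots of their array. In wild-type colonies this goes with olfactory receptor probes well above background at 98.4%, and the part of that in the Cdkn2a signal was not tested.

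**Figure D3:**
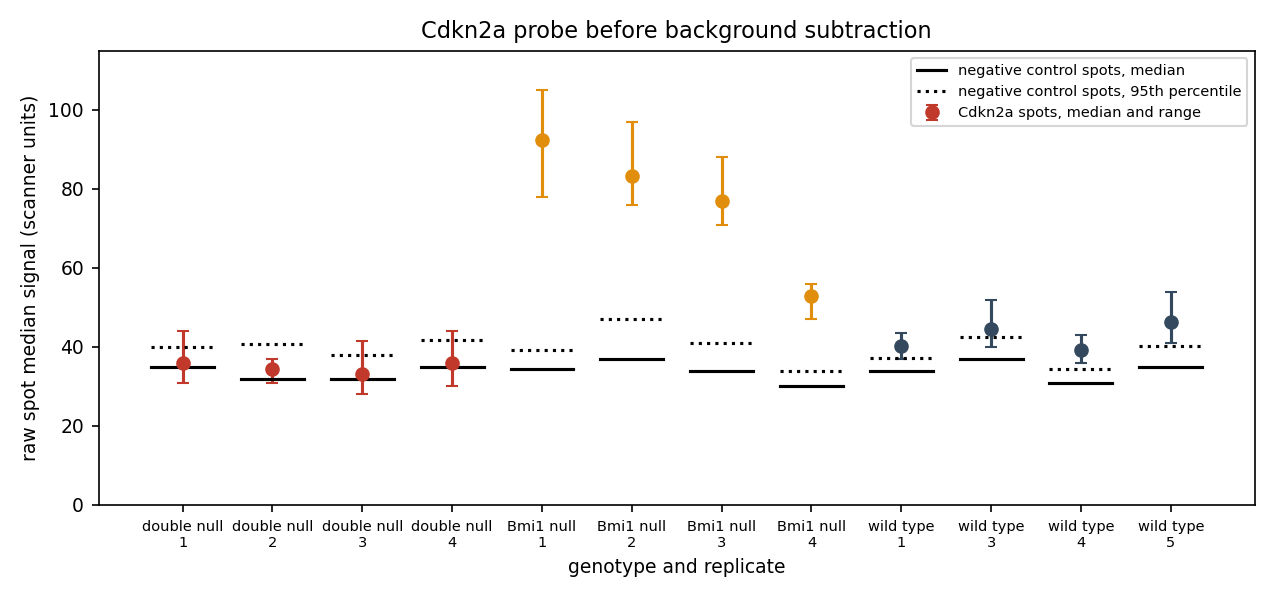
Raw signal of the Cdkn2a spots on each array before background subtraction (y axis, scanner units from 0, by genotype and replicate), as the median (point) and range (whiskers) of 8 to 10 spots, with the median and 95th percentile of 153 negative control spots as solid and dotted lines. The Bmi1 null medians of 53 to 92.5 lie above the dotted line, the double null medians of 33.25 to 36.0 lie between the lines, and the wild-type medians of 39.25 to 46.25 lie just above the dotted line.

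Cdkn2b encodes Ink4b, the inhibitor that transforming growth factor beta induces in epithelia, and it is the neighbour of Cdkn2a at chr4:89306289-89311032 (GRCm38.p6). Its level was 3.18, 3.69, 3.25 and 3.58 in double null, 2.81, 2.74, 3.03 and 2.81 in Bmi1 null and 1.13, 1.84, 0.91 and 1.56 in wild-type colonies. The 3 genotypes did not overlap on this scale, with double null highest. Signal of the gene next to Cdkn2a was thus not lower in double null colonies. The change between the mutants was nevertheless not called (log2 0.58 ± 0.23 SE, interval 0.09 to 1.07, limma adjusted p = 0.153; 0.51 on slide 2 and 0.35 on slide 3). Against wild type Cdkn2b was 4.18-fold higher in double null (2.06 ± 0.23, adjusted p = 3.06e-06; 1.40 on slide 2) and 2.81-fold higher in Bmi1 null colonies (1.49 ± 0.23, adjusted p = 5.25e-05; 1.79 on slide 1 and 0.90 on slide 2). Relative to the median of all genes these changes were 3.47 and 2.73. The authors' processed values gave smaller ones, 1.22 (limma adjusted p = 0.00165) and 0.69 (adjusted p = 0.0435). In that table wild-type replicate 3, at 11.96, stood above every Bmi1 null array (11.54 to 11.74), so that these genotypes overlapped.

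The 4 genes tested that flank Cdkn2a and Cdkn2b were not called between the mutants (0 by limma adjusted p, 0 at an unadjusted p under 0.05 and 0 in the authors' table), with a median log2 change of -0.06. Mtap, an enzyme of methionine salvage on one side of the locus, stood at 0.84 ± 0.38 (SD, n = 4) in double null and 0.96 ± 0.19 in Bmi1 null colonies, a log2 change of -0.12 ± 0.23 (SE, adjusted p = 0.829). Klhl9, an adaptor of a ubiquitin ligase, had a log2 change of -0.34 ± 0.22 (adjusted p = 0.42) on the probe used and of 0.89 on its other probe. That of Dmrta1, a transcription factor gene, was 0.45 ± 0.36 (adjusted p = 0.529), and Elavl2, which encodes an RNA-binding protein of neurons, was well above background on 0 of 4 double null and 2 of 4 Bmi1 null arrays.

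The promoter windows of Cdkn2a and Cdkn2b are shown because the genes are neighbours and only Cdkn2a was called between the mutants. RefSeq gives Cdkn2a 2 starts, 12427 bases apart on the minus strand, of which the upstream one begins the Arf transcript and the downstream one the Ink4a transcript. Capitals mark the E2F motif (TTTCCCGC or TTTGGCGC) and the Sp1 motif (GGGCGG), each searched on both strands. The E2F motif occurs in 1.56% of all promoter windows and, among the 9 windows of these 6 inhibitors, in that of Arf alone. The Sp1 motif occurs in 35.7% of all windows and in 7 of these 9. The windows are of the reference genome (RefSeq, GRCm38.p6), not of the mutant allele.
Cdkn2a Arf promoter, chr4:89294570-89294869, minus strand: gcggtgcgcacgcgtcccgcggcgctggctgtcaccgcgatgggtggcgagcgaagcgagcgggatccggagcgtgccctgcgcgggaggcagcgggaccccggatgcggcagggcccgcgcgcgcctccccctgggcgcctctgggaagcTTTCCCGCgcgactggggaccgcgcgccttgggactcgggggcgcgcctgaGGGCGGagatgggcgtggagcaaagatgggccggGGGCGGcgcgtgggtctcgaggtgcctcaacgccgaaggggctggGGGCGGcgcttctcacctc
Cdkn2a Ink4a promoter, chr4:89282143-89282442, minus strand: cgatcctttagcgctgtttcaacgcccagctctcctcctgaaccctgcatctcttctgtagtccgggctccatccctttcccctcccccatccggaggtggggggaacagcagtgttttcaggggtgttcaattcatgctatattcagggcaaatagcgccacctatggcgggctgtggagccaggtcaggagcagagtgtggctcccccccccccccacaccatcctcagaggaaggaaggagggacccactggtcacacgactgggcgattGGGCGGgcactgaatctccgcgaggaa
Cdkn2b promoter, chr4:89310983-89311282, minus strand: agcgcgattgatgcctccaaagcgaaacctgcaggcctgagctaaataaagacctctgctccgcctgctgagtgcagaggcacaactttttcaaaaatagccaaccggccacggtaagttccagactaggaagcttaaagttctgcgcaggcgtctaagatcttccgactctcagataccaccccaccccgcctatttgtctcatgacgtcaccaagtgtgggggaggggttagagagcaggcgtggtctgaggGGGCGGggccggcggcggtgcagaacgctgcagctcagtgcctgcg

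Cdkn2c encodes Ink4c, at chr4:109660876-109666756 (GRCm38.p6), far from the Cdkn2a locus on the same chromosome. Its level was -0.48, -0.59, -0.08 and -0.53 in double null, -0.31, -0.97, -0.31 and -0.27 in Bmi1 null and 2.15, 0.12, 2.12 and 1.49 in wild-type colonies. All wild-type arrays lay above all mutant arrays on this scale, though wild-type replicate 3 came close to them. With the arrays aligned on their median that replicate stood at 1.37, below every double null array (1.57 to 2.22). In the authors' table it stood at 7.65, below every mutant array (8.08 to 8.57). Cdkn2c fell by 1.89 ± 0.39 (SE, limma adjusted p = 0.000509) in double null and by 1.94 ± 0.39 (adjusted p = 0.000454) in Bmi1 null colonies against wild type on the log2 scale. Within slides the changes were -0.20 in double null on slide 2, and -2.43 on slide 1 and -1.09 on slide 2 in Bmi1 null colonies. Relative to the median of all genes they were -0.49 and -0.70, and the double null call ended with the arrays aligned on their median (-0.86, adjusted p = 0.0583). Between the mutants the change was 0.04 ± 0.39 (adjusted p = 0.967, interval -0.79 to 0.88).

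Cdkn2d encodes Ink4d, at chr9:21288459-21291421 (GRCm38.p6). Its level was -0.11, -1.10, -1.14 and -0.54 in double null, -1.13, -1.95, -1.50 and -0.99 in Bmi1 null and 0.24, -0.55, 0.63 and -0.15 in wild-type colonies. On this scale Bmi1 null arrays lay below all wild-type arrays, and double null arrays overlapped both. With the arrays aligned on their median wild-type replicate 3 stood at 0.70, within the Bmi1 null range of 0.08 to 1.26. In the authors' table it stood at 7.60, within the Bmi1 null range of 7.30 to 8.21. Cdkn2d fell by 1.43 ± 0.32 (SE, limma adjusted p = 0.00108) in Bmi1 null colonies on the log2 scale (-1.49 on slide 1, -1.40 on slide 2) and by 0.76 ± 0.32 (adjusted p = 0.0403) in double null colonies (-0.59 on slide 2), both against wild type. Relative to the median of all genes these changes were -0.19 and 0.64. With the arrays aligned on their median neither was called, at -0.50 (adjusted p = 0.172) in Bmi1 null and 0.27 (adjusted p = 0.457) in double null colonies, so that the double null direction depends on the scaling. The double null call also ended without wild-type replicate 1 (-0.70), wild-type replicate 4 (-0.56), double null replicate 2 (-0.64) or double null replicate 3 (-0.62), with the slide as a block (-0.48, adjusted p = 0.165), under quantile normalization (-0.64), with normexp correction (-0.49) and in the authors' table (-0.57, adjusted p = 0.178). Between the mutants the change was 0.67 ± 0.32 (adjusted p = 0.245, interval -0.02 to 1.37).

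**Figure D4:**
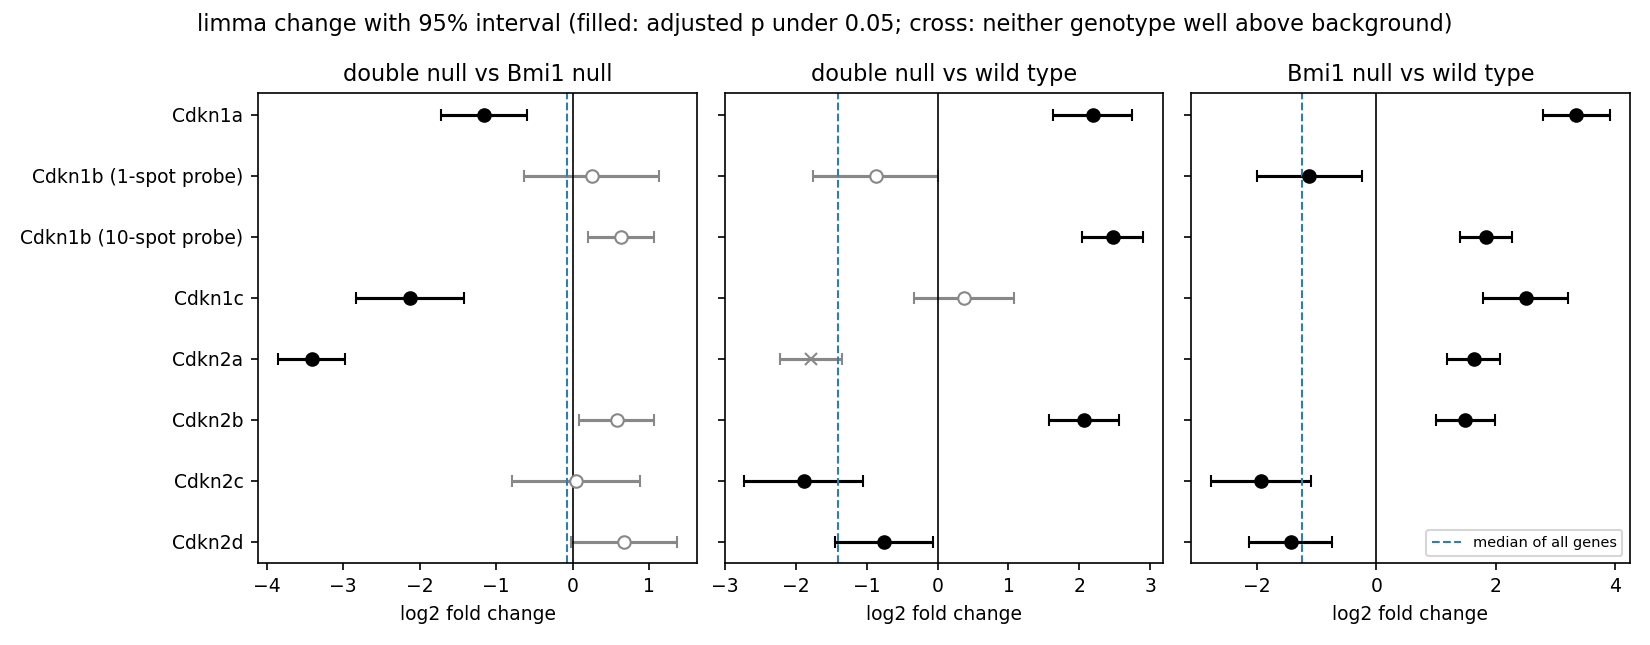
Log2 change of each probe (x axis) with its 95% interval in double null against Bmi1 null, double null against wild-type and Bmi1 null against wild-type colonies. Filled points have a limma adjusted p under 0.05, the cross marks Cdkn2a where neither genotype was well above background, and the dashed line is the median of all genes (-0.07, -1.41 and -1.24). Changes of Cdkn2a are fitted values and not folds, since its signal was dim.

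Ordered by level within each gene, Cdkn1a and Cdkn2b thus gave 3 separate genotypes in different orders. Cdkn1a ran from Bmi1 null over double null to wild type, and Cdkn2b ran from double null over Bmi1 null to wild type, its upper step not called. For Cdkn2c the step between the mutants was within the spread of the arrays. For Cdkn1c that between double null and wild type was so on this scale. With the arrays aligned on their median the Cdkn1c step was 1.40 (limma adjusted p = 0.00122), and these genotypes did not overlap.

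Of 12 kinases and cyclins that the inhibitors bind and that were tested, 4 were higher and 0 lower in the double null against the Bmi1 null, with a median log2 change of 0.32 beside -0.07 over all genes, of which 2.75% were higher and 4.8% lower. The count was 2 under quantile normalization and without wild-type replicate 3 or 4, Bmi1 null replicate 1, 3 or 4, or double null replicate 1, 2 or 3, and 1 with the slide as a block. Ccna2, the S phase cyclin partner of Cdk2, stood at -0.02 ± 0.20 (SD, n = 4) in double null and -1.23 ± 0.18 in Bmi1 null colonies, a log2 change of 1.20 ± 0.20 (SE, limma adjusted p = 0.00398). Ccne2, a cyclin of entry into S phase, rose by 1.0 ± 0.19 (adjusted p = 0.00758), and the mitotic pair Ccnb1 and Cdk1 rose by 0.71 ± 0.19 (adjusted p = 0.0381) and 1.08 ± 0.30 (adjusted p = 0.0494). The kinases that Ink4 proteins bind and the D-type cyclins tested were not called, and the log2 change of Cdk4 was 0.49 ± 0.30 (adjusted p = 0.381), of Cdk6 -0.18 ± 0.22 (adjusted p = 0.7), of Ccnd2 -0.48 ± 0.32 (adjusted p = 0.426; 0.002 and -0.07 on its further probes) and of Ccnd3 0.12 ± 0.22 (adjusted p = 0.813).

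Of 13 Rb proteins and E2F factors, 1 was higher and 0 were lower between the mutants. It was E2f2, an activator of S phase genes, at 0.93 ± 0.30 (SD, n = 4) in double null and -0.74 ± 0.48 in Bmi1 null colonies (log2 change 1.67 ± 0.26 SE, limma adjusted p = 0.00301), a call that ended with the slide as a block. Among 29 S phase genes that E2F drives, 15 were higher and 0 lower (2.75% and 4.8% over all genes), with a median of 0.89. The count was 9 without double null replicate 3 and under quantile normalization, 10 without Bmi1 null replicate 2 or 4, and 18 with the arrays aligned on their median. Thymidine kinase Tk1 rose by 1.60 ± 0.32 (adjusted p = 0.0103), the dUTPase Dut by 1.58 ± 0.28 (adjusted p = 0.00543) and thymidylate synthase Tyms by 1.55 ± 0.28 (adjusted p = 0.0065). Of 30 genes of the Arf and p53 axis, 0 were higher and 10 lower, with a median of -0.69. The lower count was 13 without double null replicate 1, the array with many outlier spots, and 7 under quantile normalization. Mdm2, the ubiquitin ligase of p53 and itself a p53 target, fell by 1.60 ± 0.29 (adjusted p = 0.00602), the p53 cofactor gene Trp53inp1 by 1.47 ± 0.30 (adjusted p = 0.0106) and the antiproliferative gene Btg2 by 1.46 ± 0.29 (adjusted p = 0.00901). With the slide as a block the counts were 2 higher of the S phase genes (median 1.02) and 0 lower of the p53 axis (median -0.58), where 295 of all genes were called.

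**Figure D5:**
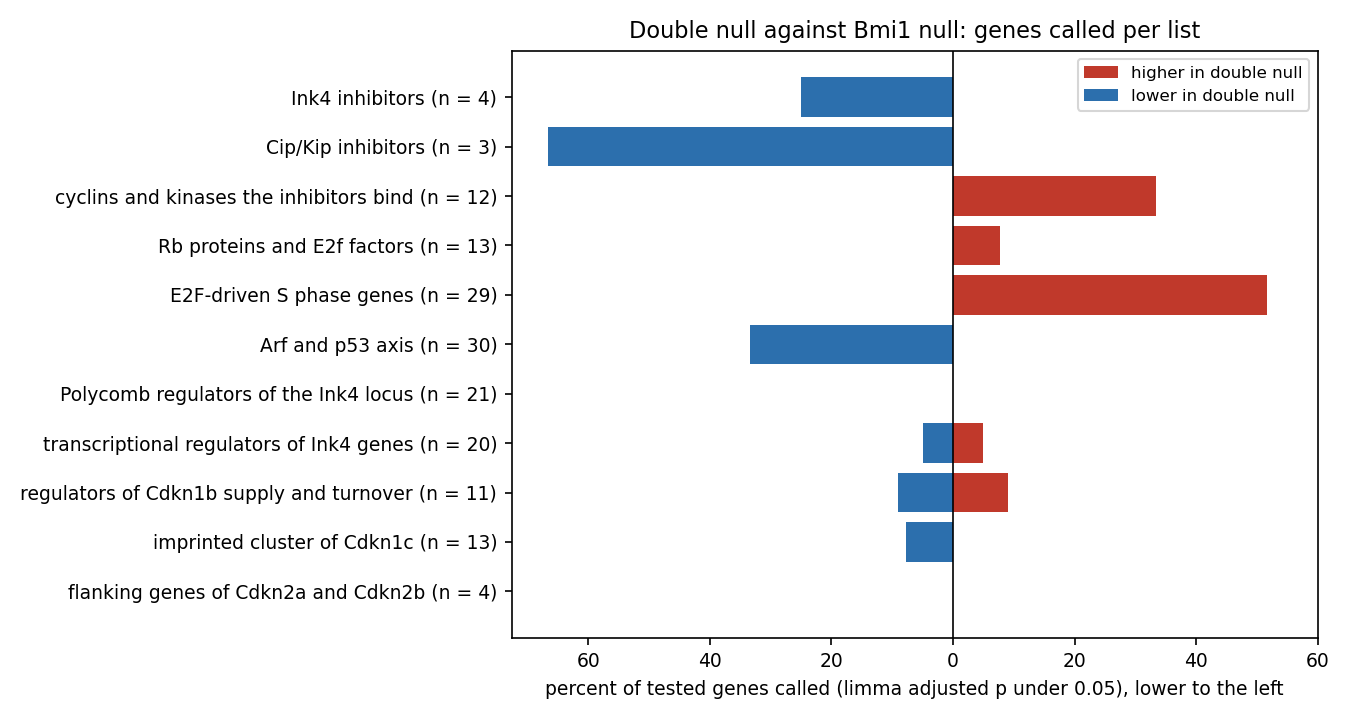
Percent of the tested genes of each list (y axis, with the number tested) called higher (right, red) or lower (left, blue) in double null against Bmi1 null by limma at an adjusted p under 0.05. Of the S phase genes 15 of 29 are higher, of the Arf and p53 axis 10 of 30 are lower, and the Polycomb and flanking gene lists have 0 calls, beside 2.75% higher and 4.8% lower over all genes.

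The calls of 3 lists of known regulators between the mutants are to be read beside the 7.56% of all genes called, and nothing particular to these lists follows from them. Of 21 Polycomb genes tested 0 were called in either direction by limma, where an unadjusted p under 0.05 gave 3 higher and 2 lower. Their median was 0.10, and 0 were called in the authors' table. Normexp correction gave 1 lower, and 1 was higher with the mean of a gene's probes, with only probes above background on all 12 arrays and without double null replicate 2. Of 20 transcriptional regulators of Ink4 genes 1 was higher and 1 lower, and 3 were lower without double null replicate 1 and 2 without Bmi1 null replicate 1. Id1, a partner that keeps E proteins from activating Cdkn2a, stood at -1.75 ± 1.18 (SD, n = 4) in double null and 1.25 ± 0.46 in Bmi1 null colonies (log2 change -3.0 ± 0.52 SE, limma adjusted p = 0.00524). Its relative Id4 rose by 2.11 ± 0.44 (adjusted p = 0.0136; 0.93 on its other probe), a call that ended with the slide as a block. The list for the supply or turnover of Cdkn1b had 11 genes tested, 1 higher and 1 lower. The higher one was the proliferation marker Mki67, which was placed in that list and is no regulator of the protein (1.20 ± 0.27, adjusted p = 0.0198). The lower one was Foxo3, a transcription factor that activates Cdkn1b, which fell by 0.95 ± 0.20 (adjusted p = 0.0136). Both calls ended with the slide as a block, that of Mki67 also with quantile normalization and without Bmi1 null replicate 4.

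The same lists against wild type had calls in most members. In double null colonies 9 of 12 cyclins and kinases, 21 of 29 S phase genes and 17 of 30 genes of the Arf and p53 axis were higher, and 3, 4 and 7 were lower. In Bmi1 null colonies 6, 11 and 17 of the same lists were higher and 3, 8 and 4 lower. Over all genes 25.5% were higher and 59.9% lower in double null, and 25.2% and 58.3% in Bmi1 null colonies. With the arrays aligned on their median the 3 lists had 10, 25 and 23 higher and 0, 2 and 3 lower in double null, and 9, 20 and 26 higher and 0, 4 and 2 lower in Bmi1 null colonies. The authors' processed values gave 10 higher and 8 lower for the Arf and p53 axis in double null colonies. The medians of the 3 lists were 1.27, 1.16 and 0.70 in double null and 0.80, 0.25 and 1.03 in Bmi1 null colonies, beside -1.41 and -1.24 over all genes. Cdk4 was higher in both mutants, at 5.15 ± 0.42 (SD, n = 4) in double null and 4.66 ± 0.21 in Bmi1 null against 2.65 ± 0.60 in wild-type colonies, and so was Cdk2, at -0.25 ± 0.18 and -0.50 ± 0.15 against -1.86 ± 0.36. Polycomb genes had 12 of 21 higher and 4 lower in each mutant, with Bmi1 among the lower, and with the arrays aligned on their median 18 in double null and 17 in Bmi1 null colonies were higher and 1 in each was lower.

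The genes nearest to each inhibitor in pattern were found over 15825 genes as those with the smallest root mean square difference over the 12 arrays, after each gene was centred on its own mean. Foxo3 (0.25), Fbln2 (0.26) and Pi4k2a (0.30) lay nearest to Cdkn1a, where the median gene lay at 1.58 log2 units. Cpe (0.37), Metrnl (0.43) and Axl (0.46) lay nearest to Cdkn1c, with a median of 1.38. Srp68 (0.16), Polr2e (0.17) and Chchd3 (0.18) lay nearest to Cdkn2b, with a median of 1.09. For Cdkn2a they were Orm1 (0.38), Cpz (0.41) and Angptl7 (0.44), with a median of 1.67. Cdkn2a was well above background on 0 of 4 double null and 0 of 4 wild-type arrays, and the part of dim signal in this likeness was not tested. Those nearest to Cdkn1b, by its single-spot probe, were Prkaa2, Rps19bp1 and Hdhd5 (0.30 to 0.31), to Cdkn2c Gpr82, Tmem107 and Cadm4 (0.30 to 0.31), and to Cdkn2d Hdhd3, Eif2s2 and Phf11d (0.23 to 0.30). Likeness over 12 arrays of 3 genotypes rests mainly on the genotype means, and the arrays share the scaling.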

How the data were processed

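Per the labels' protocols, each colony's total RNA went through whole transcriptome amplification and Cy3 labelling before hybridisation to an Agilent mouse array read in 1 colour. The authors deposited the scanner output, whose processed signal is a background-subtracted linear intensity made by Feature Extraction 10.7.3.1, per the file headers. Their processed value table holds log2 values that the authors deposited with no stated normalization, and it served as an alternative. The headers name build mm9, and no coordinates were taken from the files. Coordinates, names and promoter windows came from RefSeq GRCm38.p6.

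Control spots were left out and outlier spots set missing. The signal was log2-transformed, the array's 75th percentile subtracted and spots of 1 probe averaged. A probe was kept when well above background on at least 3 of 4 arrays of a genotype (39338 of 41174 probes). The probe with the highest mean stood for a gene, and 16986 of the 31064 genes tested had a RefSeq symbol. All 12 arrays entered 1 fit of genotype means in limma 3.58.1 (R 4.3.3; 9 residual degrees of freedom), with Benjamini-Hochberg adjustment over all genes of a contrast. Calls are at adjusted p under 0.05, and intervals are at the 95% level. The fit was tested on simulated data. Members, gene lists, tests and alternatives were chosen with earlier results of these data known. Named beside the members were up to 3 called genes of largest change per list, any gene of the cyclin, imprinted and flanking lists, and the 3 genes nearest in pattern to a member. Phlda2 and Klhl9 came under the second part.

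Alternatives were normexp correction (offset 50), run on the median spot signal, since the column of mean signals that had been planned was not in the files used here, median scaling, quantile normalization, the authors' table, other filters, the mean of a gene's probes, the slide or replicate number as a block, and leaving out each array. Reading Cdkn1b by its other probe was added after the data had been seen. A permutation test of the difference between its probes, also added then, is not reported, since the same arrays had prompted it. Same-numbered colonies deviated together at correlations of -0.15 to 0.22, so the numbers were not taken to pair them.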

Additional observations from a re-analysis of the deposited data

Results flagged for a closer look

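Among 24 groups of 4 arrays (8 probes, 3 genotypes), 1 had an array far from the rest. Cdkn2c stood at -0.97 in Bmi1 null replicate 2, the lowest of its 4 colonies, with a gap to the next array of 0.941 of the group's range. Chance flags about 1 in 20 such groups. The cause was not tested.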

How the results depend on the processing

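Leaving out 1 array at a time gave 2 to 3 inhibitors called in double null against Bmi1 null, 4 to 6 in double null against wild type and 6 to 7 in Bmi1 null against wild type. The genes called numbered 1432 to 2700, 25600 to 26644 and 24819 to 26083 in the same comparisons, beside 2347, 26550 and 25937 with all arrays. The lowest count, 1432, was without double null replicate 3, and without Bmi1 null replicate 4 it was 1506. In double null against Bmi1 null, normexp correction gave 1058 genes, quantile normalization 1376 and the slide as a block 295, with wild-type replicate 5 and double null replicate 2 alone on their slides. With the replicate block it was 1392, the Cdkn1a call ended (-1.16, limma adjusted p = 0.0589) and no other inhibitor changed its call in that comparison. Requiring all 12 arrays above background left 17605 genes called in double null and 17122 in Bmi1 null against wild type, where fewer genes are tested and Cdkn2a is none of them. Normexp correction gave 3 inhibitors called in double null against wild type.

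With normexp correction Cdkn2a was 0.099 in double null against Bmi1 null, -0.13 in double null and -0.23 in Bmi1 null against wild type. Between double null and wild type, where neither was well above background and fitted values carry no fold, it turned to 0.13 in the authors' table and 0.75 under quantile normalization, and was -1.24 within slide 2. Between the mutants it was -3.05 within slide 2 and -3.87 within slide 3. Cdkn1b turned to 2.47 in double null and 1.84 in Bmi1 null against wild type by its 10-spot probe, and to 0.80 and 0.36 by the mean of its probes. Cdkn2d in double null against wild type turned to 0.27 with median scaling. Except where a probe, an array or the tested genes were changed, the cause was not tested. Dim signal limits Cdkn2a, which was near the negative controls in double null and wild-type colonies.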
